A study of Danio rerio with 24 samples.

Results

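ATF3 (ENSDARG00000007823), fosl1b (ENSDARG00000079373), FOSL2 (ENSDARG00000040623) and JUNB (ENSDARG00000074378) are 4 of the 31087 zebrafish genes in the deposited table. They were chosen as named members of the AP-1 and ATF groups of transcription factors. No threshold on their values was used, but earlier results of these data were known. A table of gene names gives many zebrafish genes the capitalised symbol of the mammalian gene, and it does not say which of the zebrafish junb paralogs the JUNB entry is. All 4 were measured in every library. ATF3, FOSL2 and JUNB stood at 1 FPKM or more in all 24 libraries, which is the level that a gene had to reach in 3 libraries to be tested. fosl1b reached it in 5 libraries, all of them GFP+ cells after neomycin, and so entered the tests only through the group in which it was high.

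RNA was sequenced from cells of 5-day-old zebrafish larvae of the Tg(sqET20) line, an enhancer trap with GFP in lateral line cells and in other cells too. Lateral line organs sense water movement at the skin with hair cells that sit in a bed of supporting cells, and neomycin, an antibiotic, is toxic to the hair cells. Larvae were given 300 uM neomycin for 30 min and recovered for 1, 3 or 5 h, or were mock treated without drug and taken at 1 h. For each library 200 larvae were pooled and dissociated with trypsin, and about 30000 living GFP+ or GFP- cells were sorted. All larvae carried the same transgene, so the groups differ in drug, time and sorted population. There were 3 libraries for each of GFP+ cells at 1, 3 and 5 h, GFP+ cells of mock larvae, GFP- cells at 1, 3 and 5 h and GFP- cells of mock larvae, 24 libraries in 8 groups. The date label is Mar2012 for mock and 1 h and Apr2012 for 3 h and 5 h, so later time and date cannot be told apart. The labels number the libraries but do not say that they come from separate clutches, so p-values measure the spread between these libraries, which may be technical.

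AP-1 is a family of dimers of Fos and Jun proteins, joined by leucine zippers, that bind short DNA sites near their target genes. Fos proteins need a Jun partner to bind DNA, while Jun proteins can also pair with each other and with ATF proteins. ATF3 belongs to the ATF/CREB group, acts as a repressor when paired with itself in mammals and can pair with Jun proteins. Genes of these families are known as immediate early or stress-induced genes, whose transcripts appear within minutes to hours of injury, growth factors or stress without new protein synthesis, and they are well known from regenerating and wounded tissue in fish.

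The transcripts of all 4 genes stood far above mock in GFP+ cells 1 h after neomycin and were lower again at 3 h. Values are FPKM, which are fragment counts scaled to transcript length and to the number of mapped fragments. Changes are differences of log2(FPKM + 1) ± standard error with 3 libraries per group. P-values are two-sided from limma and adjusted by the Benjamini-Hochberg method over the 21860 genes tested, and a gene is called where this falls under 0.05. The added 1 shrinks the log2 change of a gene as low as fosl1b, so ratios of mean FPKM are given beside it. In bulk RNA from sorted cells, more transcript per cell and more cells that carry it cannot be told apart.

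ATF3 had the largest change of the 4 on the log2(FPKM + 1) scale, while fosl1b had the larger ratio of means. In GFP+ cells its libraries 1, 2 and 3 held 4.46, 1.01 and 1.64 FPKM in mock, 140.1, 62.9 and 52.3 FPKM at 1 h, 28.6, 6.42 and 9.49 FPKM at 3 h and 2.98, 4.88 and 5.36 FPKM at 5 h. Every 1 h library lay above every mock, 3 h and 5 h library, and every 3 h library lay above every mock library, while the 5 h and mock libraries overlapped. At 1 h ATF3 averaged 85.1 ± 47.9 FPKM after neomycin and 2.37 ± 1.84 FPKM in mock (SD, n = 3 each), a ratio of 36.0. The log2 change was 4.67 ± 0.50 (adjusted p = 1.01e-06 by limma), the 18th highest of 21860 genes. In the GFP- cells ATF3 held 8.31, 3.08 and 3.52 FPKM in mock, 21.3, 12 and 13.7 FPKM at 1 h, 13.4, 6.21 and 8.0 FPKM at 3 h and 3.4, 4.54 and 8.02 FPKM at 5 h. The 1 h and mock groups of GFP- cells did not overlap either, but the change of 1.54 ± 0.50 did not pass the test (adjusted p = 0.112 by limma).

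The Jun family member JUNB supplies the Jun partner of an AP-1 dimer and in mammals is a weaker activator than JUN at many sites. In GFP+ cells it held 14.5, 8.08 and 8.63 FPKM in mock, 149.0, 73.1 and 71.6 FPKM at 1 h, 43.4, 18.3 and 20.3 FPKM at 3 h and 16.4, 11.2 and 18.4 FPKM at 5 h. As for ATF3, the 1 h libraries lay above all others and the 3 h libraries above mock. At 1 h JUNB averaged 97.9 ± 44.3 FPKM after neomycin and 10.4 ± 3.56 FPKM in mock (SD, n = 3 each), a ratio of 9.41, and the log2 change was 3.07 ± 0.32 (adjusted p = 5.66e-07 by limma). In GFP- cells JUNB held 23.5, 19.5 and 22.4 FPKM in mock, 36.3, 23.6 and 26.4 FPKM at 1 h, 26.6, 20.5 and 16 FPKM at 3 h and 24.4, 21.1 and 20.2 FPKM at 5 h. Its level in GFP- cells therefore stayed between 16 and 36.3 FPKM over the 12 libraries, and the log2 change at 1 h, 0.36 ± 0.32, did not pass (adjusted p = 0.638 by limma).

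fosl1b is a zebrafish gene of the FOSL1 type, and in mammals FOSL1 (Fra-1) is a Fos protein that lacks the strong activation domain of FOS. Its GFP+ libraries held 0.185, 0.209 and 0.0995 FPKM in mock, 6.49, 7.57 and 10.3 FPKM at 1 h, 1.58, 0.505 and 1.01 FPKM at 3 h and 0.711, 0.577 and 0.702 FPKM at 5 h. The gene was close to absent in mock GFP+ cells, and all 9 libraries after neomycin lay above the 3 mock libraries. The 1 h mean was 8.11 ± 1.94 FPKM after neomycin and 0.165 ± 0.0577 FPKM in mock (SD, n = 3 each), a ratio of 49.3, with a log2 change of 2.95 ± 0.18 (adjusted p = 2.27e-09 by limma). Since fosl1b reached the test only through GFP+ cells after neomycin, this p-value is not independent of the group in which the gene is high. In the alternative with no filter on low values, every gene detected in any library was tested, and the change also passed. Its size does not depend on the filter. With 0.1 in place of 1 added to FPKM the same change is 4.95. In GFP- cells fosl1b stayed between 0.0635 and 0.676 FPKM in all 12 libraries, and its mean at 1 h was 0.260 FPKM after neomycin and 0.460 FPKM in mock. The change there was -0.21 ± 0.18 on the log2 scale (adjusted p = 0.641 by limma).

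FOSL2 (Fra-2 in mammals) is a related Fos protein that is present in many resting epithelia. In GFP+ cells it held 7.46, 3.41 and 3.5 FPKM in mock, 34.9, 37.5 and 28.9 FPKM at 1 h, 14.8, 6.50 and 8.17 FPKM at 3 h and 6.18, 5.5 and 6.21 FPKM at 5 h. The 1 h libraries stood apart from all others, while 1 of the 3 libraries at 3 h lay below the highest mock library. The 1 h mean was 33.7 ± 4.4 FPKM after neomycin and 4.79 ± 2.31 FPKM in mock (SD, n = 3 each), a ratio of 7.05, with a log2 change of 2.65 ± 0.24 (adjusted p = 1.49e-07 by limma). FOSL2 was the only one of the 4 that also passed the test in GFP- cells, where it held 17.2, 20.0 and 17.4 FPKM at 1 h, against 7.18, 5.62 and 5.69 FPKM in mock. That change was 1.43 ± 0.24 (adjusted p = 0.00286 by limma), a ratio of means of 2.95. At 3 h and 5 h the GFP- libraries of FOSL2 held 11.5, 7.80 and 7.85 FPKM and 6.38, 7.29 and 6.65 FPKM.

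**Figure D1:**
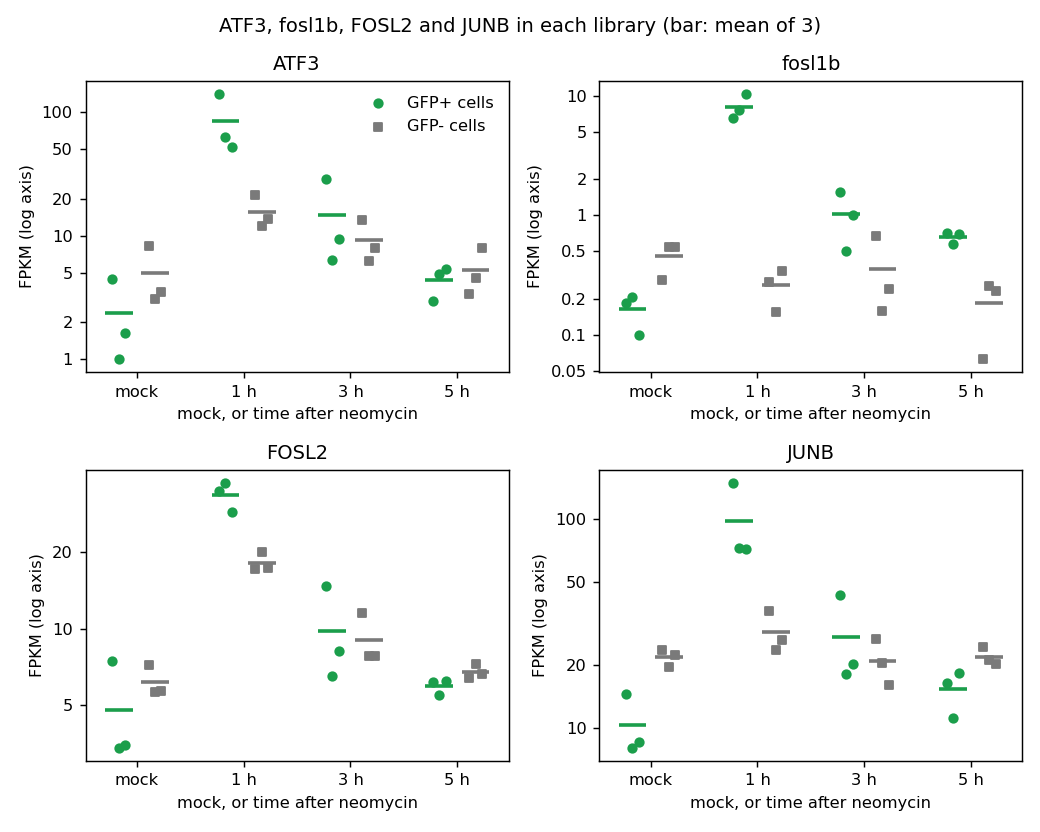
FPKM (log axis) of ATF3, fosl1b, FOSL2 and JUNB in mock larvae and 1, 3 and 5 h after neomycin; each point is a library, the bar is the mean of 3, circles are GFP+ cells and squares GFP- cells. The GFP+ libraries at 1 h are the highest of each panel, from 52.3 to 140.1 FPKM for ATF3 and from 6.49 to 10.3 FPKM for fosl1b.

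These 4 calls stand against a large response at 1 h in GFP+ cells, where 13.9% of all tested genes were called higher and 33.0% were called in either direction. The median log2 change over all tested genes was -0.068. For each of the 4 all 1 h libraries lay above all mock libraries, as for 16.3% of tested genes. By rank of the log2 change, JUNB was the 89th, fosl1b the 100th and FOSL2 the 137th highest of 21860. In GFP- cells 2.70% of genes were called at 1 h in either direction and 1.88% were called higher, and FOSL2 was 1 of these. Higher genes were 69.5% of the GFP- calls, and 84.0% with median-of-ratios scaling. ATF3, FOSL2 and JUNB had GFP- libraries at 1 h that all lay above those of mock, as 9.82% of tested genes did.

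The change at 1 h was larger in GFP+ than in GFP- cells for ATF3, FOSL2 and JUNB, by a test of the difference itself. For fosl1b, which no GFP- library brought past the filter, the value is given as a description. The change in GFP+ cells minus that in GFP- cells was 3.13 ± 0.71 for ATF3 (adjusted p = 0.00559), 1.22 ± 0.34 for FOSL2 (0.0211) and 2.71 ± 0.45 for JUNB (0.00045) by limma, and 3.16 ± 0.26 for fosl1b. Over all tested genes, 7.65% were called with a change that was higher in GFP+ cells. For FOSL2 the call rests on few libraries. It was lost without mock GFP+ library 2 (adjusted p = 0.0586), mock GFP+ library 3 (0.0592), mock GFP- library 1 (0.0517) or GFP+ library 2 at 1 h (0.0508), with differences of 1.06 to 1.14.

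**Figure D2:**
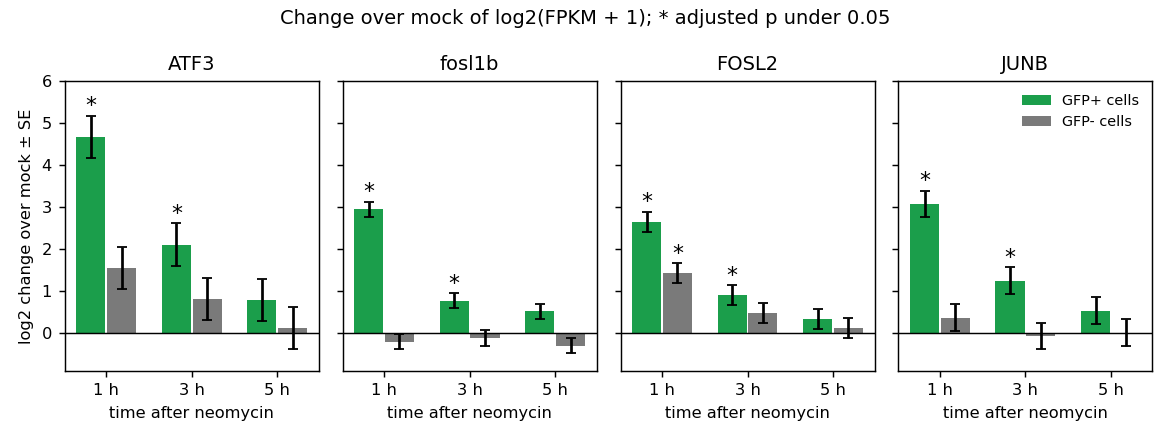
Change of log2(FPKM + 1) over mock of the same population, with its standard error, 1, 3 and 5 h after neomycin in GFP+ cells (green, left of each pair) and GFP- cells (grey); a star marks an adjusted p under 0.05. ATF3 has the tallest bar, 4.67 in GFP+ cells at 1 h, and FOSL2 has the single starred grey bar, 1.43.

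At 3 h after neomycin all 4 transcripts were still called above mock in GFP+ cells, at smaller sizes. The log2 change was 2.11 ± 0.50 for ATF3 (adjusted p = 0.00388), 1.25 ± 0.32 for JUNB (0.0058), 0.90 ± 0.24 for FOSL2 (0.00889) and 0.77 ± 0.18 for fosl1b (0.00378). As at 1 h, the fosl1b p-value is not independent of the GFP+ groups through which the gene entered the tests. The 3 h and mock libraries did not overlap for ATF3, fosl1b and JUNB, as for 27.9% of tested genes. The background at this time was high, with 19.9% of tested genes called higher and a median change of 0.11, and scaling each library by the median of ratios moved that median by -0.11. Higher genes were 71.0% of the calls, and 47.2% with that scaling. A fit on the 2 groups of this contrast alone ended the call of each gene, with adjusted p of 0.0766 for ATF3, 0.0821 for JUNB, 0.168 for FOSL2 and 0.0546 for fosl1b. The FOSL2 call was also lost without mock library 2 (0.74, adjusted p = 0.0511) or without 3 h library 1 (0.59, adjusted p = 0.0685). In GFP- cells at 3 h none of the 4 passed, with changes from -0.12 for fosl1b to 0.81 for ATF3, where 4.42% of tested genes were called in either direction.

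By 5 h none of the 4 passed in either population. In GFP+ cells the log2 change was 0.79 ± 0.50 for ATF3 (adjusted p = 0.317), 0.51 ± 0.18 for fosl1b (0.0566), 0.54 ± 0.32 for JUNB (0.272) and 0.33 ± 0.24 for FOSL2 (0.386), by limma, while 15.1% of genes were called higher. Higher genes were 78.7% of the calls, and 48.3% with median-of-ratios scaling. fosl1b was the only one whose 5 h and mock libraries did not overlap, as 23.6% of tested genes were in the higher direction. Its means were 0.663 FPKM after neomycin and 0.165 FPKM in mock, a ratio of 4.03. Both lie below 1 FPKM. Since fosl1b entered the tests only through GFP+ cells after neomycin, its values here are a description. With 0.1 added to FPKM its change was called (1.55, adjusted p = 0.0184), as it was in the fit on both groups alone (0.51, adjusted p = 0.0212). It was also called when single libraries of other groups were left out, namely GFP+ library 1 (adjusted p = 0.0489) or 3 (0.0429) at 1 h, GFP+ library 1 (0.0364) or 2 (0.0337) at 3 h and GFP- library 1 at 3 h (0.0442). In GFP- cells at 5 h changes ran from -0.30 for fosl1b to 0.12 for FOSL2 and ATF3, with 1.04% of genes called in either direction.

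Between the times after neomycin, the step from 1 h to 3 h was the one that passed for these genes. For fosl1b, which entered the tests only through GFP+ cells after neomycin, the values are a description. In GFP+ cells the 3 h level was below the 1 h level by a log2 change of -2.57 ± 0.50 for ATF3 (adjusted p = 0.000564), -2.18 ± 0.18 for fosl1b (1.22e-07), -1.82 ± 0.32 for JUNB (0.000177) and -1.75 ± 0.24 for FOSL2 (1.83e-05). In this contrast 8.98% of tested genes were called lower and 26.9% higher, and the dates of the libraries differ. Higher genes were 74.9% of these calls, and 49.3% with median-of-ratios scaling. The 5 h level was below the 1 h level by -3.89 ± 0.50 for ATF3 (adjusted p = 6.33e-06), -2.54 ± 0.32 for JUNB (4.11e-06), -2.43 ± 0.18 for fosl1b (1.81e-08) and -2.31 ± 0.24 for FOSL2 (5.91e-07), with 10.9% of genes called lower. Higher genes were 71.9% of those calls, and 49.2% with that scaling. From 3 h to 5 h, which share a date, the means of all 4 were lower again but none passed, with log2 changes from -0.25 for fosl1b to -1.32 for ATF3 and adjusted p from 0.206 to 0.577, where 1.78% of genes were called. In GFP- cells FOSL2 was lower at 3 h than at 1 h (-0.95 ± 0.24, adjusted p = 0.0208) and lower at 5 h than at 1 h (-1.30 ± 0.24, adjusted p = 0.00299), where 3.43% and 4.59% of genes were called lower. The first of these calls was lost without GFP- library 2 (adjusted p = 0.0834) or 3 (0.051) at 1 h, or without GFP- library 2 (0.0876) or 3 (0.0863) at 3 h.

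In mock larvae the mean level of each member was lower in GFP+ than in GFP- cells, which passed the test for JUNB. There JUNB was lower in GFP+ cells, at 10.4 ± 3.56 FPKM, than in GFP- cells, at 21.8 ± 2.08 FPKM (log2 difference -1.04 ± 0.32, adjusted p = 0.00664). With median-of-ratios scaling this difference was -0.67 and no longer passed (adjusted p = 0.0795). ATF3, fosl1b and FOSL2 also had lower means in mock GFP+ than in mock GFP- cells, by log2 differences of -0.86, -0.32 and -0.37, none of which passed in the fit over all libraries. Without mock GFP+ library 1, the difference passed for ATF3 (-1.27, adjusted p = 0.0436) and for FOSL2 (-0.68, adjusted p = 0.0126). For fosl1b it passed with 0.1 added to FPKM (-1.07, adjusted p = 0.0386). That value is a description, since only GFP+ cells after neomycin brought fosl1b past the filter. The median difference over all tested genes was -0.35 in mock, close to that of FOSL2 and that of fosl1b. In mock larvae 48.0% of all tested genes were called lower in GFP+ cells. Higher genes were 31.1% of these calls, and 47.4% with median-of-ratios scaling, which moved the median difference by 0.32.

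At 1 h the order was the other way round for all 4. GFP+ cells were above GFP- cells by 2.27 ± 0.50 for ATF3, 1.67 ± 0.32 for JUNB and 0.85 ± 0.24 for FOSL2 on the log2 scale. Adjusted p by limma ran from 0.000108 to 0.00406, where 22.7% of genes were called higher (32.0% of the calls, and 47.1% with median-of-ratios scaling). For fosl1b the difference was 2.84 ± 0.18. Only GFP+ cells after neomycin brought fosl1b past the filter, so its values here are a description. Set against the GFP- library of the same condition and number, each GFP+ library at 1 h was higher, by 3.81 to 6.57 times for ATF3, 23.4 to 48.0 times for fosl1b, 2.72 to 4.10 times for JUNB and 1.66 to 2.03 times for FOSL2. At 3 h and 5 h fosl1b alone was called, 0.56 ± 0.18 (adjusted p = 0.0115) and 0.49 ± 0.18 (adjusted p = 0.0253) higher in GFP+ cells, against 23.9% and 24.1% of genes called higher. The 3 h call was lost without GFP+ library 1 (0.37, adjusted p = 0.0896) or GFP- library 2 (0.46, adjusted p = 0.0596) at 3 h, and the 5 h call without GFP+ library 1 (0.0636) or 3 (0.0603) or GFP- library 1 (0.091) at 5 h.

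fosl1b entered the tests only through GFP+ cells after neomycin, so its values here are a description. In the fit over all libraries the excess of the GFP+ change over the GFP- change at 3 h passed for fosl1b and for no other member, at 0.89 ± 0.26 (adjusted p = 0.0484). This call lay at the edge of the threshold and was lost in 19 of the 24 fits that each left out 1 library, with differences of 0.70 to 1.08 and adjusted p up to 0.127. The differences for JUNB (1.32, adjusted p = 0.0863), ATF3 (1.29, adjusted p = 0.32) and FOSL2 (0.42, adjusted p = 0.533) did not pass at 3 h, although JUNB did without GFP+ library 1 at 1 h (adjusted p = 0.0487) and without the 8 libraries numbered 1 (0.0409). With library number as a block JUNB passed (0.0107) and fosl1b did not (0.0509). With same-numbered GFP+ and GFP- libraries of a condition as a block, JUNB (0.023) and ATF3 (0.0291) passed and fosl1b stayed called. The labels do not say whether the numbers pair the libraries. Over all genes at 3 h 5.40% were called with a higher change in GFP+ cells (86.8% of the calls, and 53.4% with median-of-ratios scaling). None passed at 5 h, with differences from 0.21 for FOSL2 to 0.81 for fosl1b, against 2.59% of genes.

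Ordered by mean log2 value over the 8 groups, each gene was highest in GFP+ cells at 1 h and lowest in GFP+ cells of mock larvae. The second group was GFP- cells at 1 h for ATF3, FOSL2 and JUNB, and GFP+ cells at 3 h for fosl1b. The groups were ordered by the same values that were then tested, and fosl1b entered the tests only through GFP+ cells after neomycin. The p-values of the steps are therefore a description. The step from the highest to the second group passed for all 4, with adjusted p of 0.000519 for ATF3, 1.22e-07 for fosl1b, 0.00406 for FOSL2 and 0.000108 for JUNB. Below it, only the step in FOSL2 from GFP- cells at 1 h (18.2 FPKM) to GFP+ cells at 3 h (9.81 FPKM) passed (adjusted p = 0.00304). No other neighbours in the 4 orders differed beyond their spread. Groups further apart in the order did differ, such as GFP- cells at 1 h and mock GFP+ cells for ATF3 (adjusted p = 0.00032).

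The libraries numbered 1 tended to hold the highest ATF3 and JUNB values. Library 1 was the highest of its group in 6 of 8 groups for ATF3 and 7 of 8 for JUNB, but in 4 of 8 for FOSL2 and 3 of 8 for fosl1b. In GFP+ cells at 3 h, library 1 of ATF3 stood at 3.60 times the mean of the other 2 libraries, and library 1 of JUNB at 2.25 times. In mock GFP+ cells the ATF3 value of library 1 was 3.37 times the mean of the others, which enters the baseline of every comparison of GFP+ cells with mock. The cause was not tested. Without the 8 libraries numbered 1, the 1 h changes in GFP+ cells were 4.67 for ATF3, 3.09 for fosl1b, 2.93 for FOSL2 and 2.97 for JUNB, and all 4 still passed. Without them the GFP+ changes at 5 h also passed for ATF3 (1.41, adjusted p = 0.0053), FOSL2 (0.62, adjusted p = 0.0166) and JUNB (0.72, adjusted p = 0.0317), as did the GFP- change of ATF3 at 1 h (1.69, adjusted p = 0.00985). This setting was chosen after seeing the data. It takes out the mock library with the highest ATF3, FOSL2 and JUNB values in each population, so these added calls are a description.

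**Figure D3:**
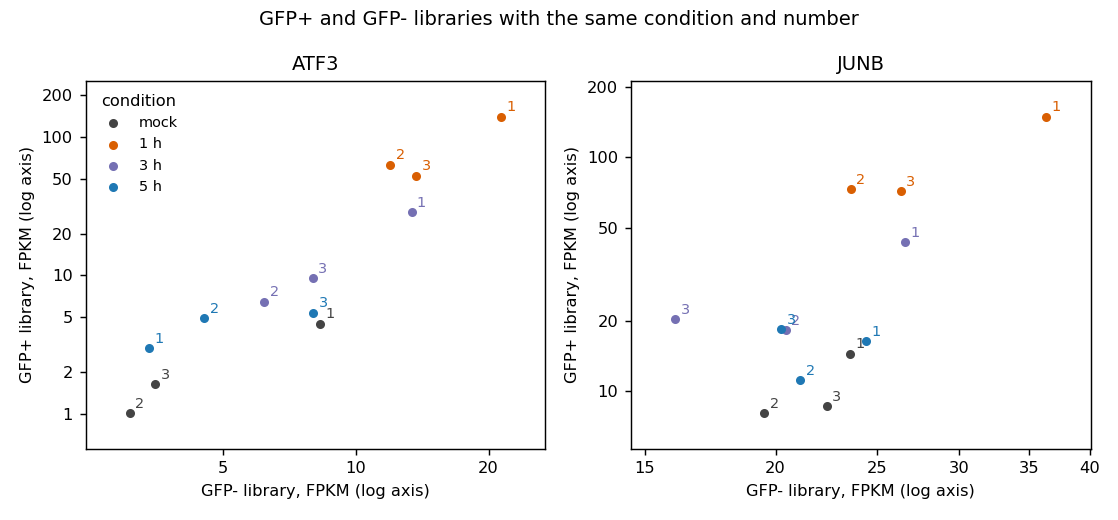
FPKM of ATF3 and JUNB in each GFP+ library (vertical, log axis) against the GFP- library of the same condition and number (horizontal, log axis); colours are conditions and digits the library numbers. The pair numbered 1 at 1 h lies at the upper right of both panels, with 140.1 FPKM in GFP+ and 21.3 FPKM in GFP- cells for ATF3.

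The tested Fos family genes were called higher in GFP+ cells at 1 h. Of 7 matched Fos genes, 6 could be tested, fosl1b and FOSL2 among them. At 1 h 6 of 6 were called higher, where 13.9% of all tested genes were. fosl1b, FOSB and fosaa were at 1 FPKM or more only in libraries after neomycin, so these counts are a description. At 3 h 5 of 6 were called higher, where 19.9% of all tested genes were, and at 5 h 1 of 6, FOSL1, where 15.1% were. The time course was not the same for all, since fosaa had 1.03 FPKM at 1 h and 1.17 FPKM at 3 h, and FOS had 18.2 FPKM at 3 h and 18.4 FPKM at 5 h. The count at 3 h includes FOSB (1.20) and fosaa (0.80), whose calls were lost without GFP+ library 1 at 3 h (adjusted p = 0.131 and 0.0718), and FOSB also without mock GFP+ library 2 (0.0512). FOSL1 (ENSDARG00000015355) had the largest change of the family, with 141.7, 83.5 and 76.8 FPKM at 1 h, against 1.25, 0.627 and 0.564 FPKM in mock GFP+ cells. Its log2 change was 5.77 ± 0.60 (adjusted p = 6.63e-07), and it was 3.93 at 3 h and 1.82 at 5 h. The call at 5 h was lost without any 1 of the 3 mock libraries (adjusted p from 0.0599 to 0.101), without 5 h library 2 (0.113) or without 5 h library 3 (0.142), and in the fit on both groups alone (0.0637). FOSL1 and fosl1b are related genes, and how the authors' counting split reads between related genes is not given in the sources used here.

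FOSB (ENSDARG00000055751), another Fos protein, was at 15.8 ± 6.34 FPKM after 1 h and 0.674 ± 0.0736 FPKM in mock GFP+ cells (SD, n = 3 each), a log2 change of 3.25 ± 0.36. FOS (ENSDARG00000031683), the founding member, was at 67.6 ± 36.6 FPKM after 1 h and 10.7 ± 4.96 FPKM in mock, a log2 change of 2.49 ± 0.57. fosaa (ENSDARG00000040135) had the smallest change, 0.71 ± 0.22, and its call was lost without 1 h library 1 (adjusted p = 0.108) or mock library 3 (0.0502). fosl2l, which was too low to be tested, was listed at 0 in all 3 mock GFP+ libraries and at 0.839, 0.594 and 0.534 FPKM at 1 h. In GFP- cells at 1 h 2 of the 6 tested Fos genes were called higher, FOSL2 and FOSB (1.83 ± 0.36), where 1.88% of all tested genes were. FOSL1 there had 7.08 FPKM after neomycin and 0.784 FPKM in mock, which did not pass (2.15 ± 0.60, adjusted p = 0.0631). The difference between the populations passed at 1 h for FOSL1 and FOSL2, where 7.65% of all tested genes were called higher. fosl1b was also called, but it entered the tests only through GFP+ cells after neomycin.

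All 3 tested Jun genes were called higher in GFP+ cells at 1 h, JUNB by the most, where 13.9% of all tested genes were. JUND (ENSDARG00000067850) changed by 1.18 ± 0.19 and JUN (ENSDARG00000043531), the main Jun transcript here, by 0.75 ± 0.14. JUN held 185.1, 184.4 and 178.0 FPKM at 1 h, against 91.7, 128.7 and 108.0 FPKM in mock GFP+ cells. None of the 3 passed in GFP- cells at any time after neomycin. Few genes did there, with 2.70%, 4.42% and 1.04% of all tested genes called in either direction at 1, 3 and 5 h. The difference between the populations passed at 1 h for all 3, where 7.65% of all tested genes were called higher. For JUN this difference was 0.62 ± 0.19 (adjusted p = 0.0363) and for JUND 0.83 ± 0.27 (adjusted p = 0.0443). Both lay near the threshold. The JUN call was lost without GFP+ library 1, 2 or 3 or GFP- library 2 or 3 at 1 h, or mock GFP+ library 1 or 3 or mock GFP- library 1 or 2, with differences of 0.50 to 0.64. The JUND call was lost in 17 of the 24 fits that each left out 1 library.

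The make-up of the Fos and Jun transcripts in each group is given as a description, with no test of its own. FPKM are per length and can be added over genes. The summed Fos family level was 227.6 ± 78.5 FPKM in GFP+ cells at 1 h and 17.4 ± 3.04 FPKM in mock GFP+ cells (SD, n = 3 each). Within it FOSL1 took 44.4%, FOS 28.3%, FOSL2 15.7% and fosl1b 4.04% at 1 h, against 4.87%, 60.1%, 28.8% and 0.940% in mock. These are means, and the mock GFP+ libraries 1, 2 and 3 were unequal, with FOS at 37.5%, 75.8% and 67.1%. FOSL2 held 47.4%, 16.3% and 22.6% in them. In GFP- cells the sum was 50.7 ± 14.7 FPKM at 1 h and 15.0 ± 2.28 FPKM in mock, and FOSL2 and FOS held about equal mean shares, with FOSL2 at 38.1% and FOS at 35.1% at 1 h, and FOSL2 at 41.4% and FOS at 40.6% in mock. Which of both was larger differed between libraries, with FOS ahead in GFP- library 1 at 1 h (50.4% against 25.5% for FOSL2) and in mock GFP- library 2 (50.7% against 33.9%). For the Jun family JUNB took 32.3% of 294.3 FPKM in GFP+ cells at 1 h and 8.6% of 125.4 FPKM in mock, while JUN took 63.0% and 87.0%. In GFP- cells JUNB held 33.5% at 1 h and 30.3% in mock, so the mean share of JUNB in GFP+ cells at 1 h was close to those means. The single libraries were not, with 42.6%, 27.1% and 27.2% in GFP+ cells at 1 h. GFP- libraries ranged from 31.6% to 36.2% at 1 h and from 28.0% to 33.6% in mock.

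**Figure D4:**
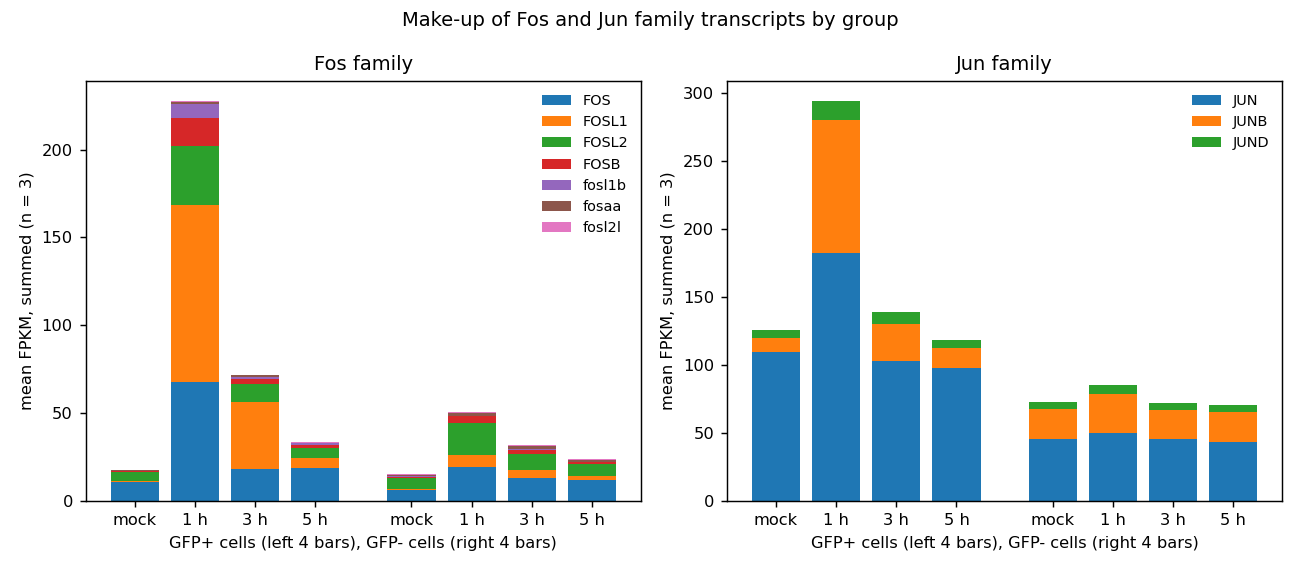
Mean FPKM of each gene of the Fos family (left) and the Jun family (right), stacked, in mock larvae and 1, 3 and 5 h after neomycin (n = 3 libraries per bar), for GFP+ cells in the left 4 bars of each panel and GFP- cells in the right 4. The GFP+ bar at 1 h is the tallest of each panel, 227.6 FPKM for Fos and 294.3 FPKM for Jun genes, and FOSL1 is its largest Fos segment.

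ATF3 had the largest change of the tested ATF/CREB genes in GFP+ cells at 1 h. Of 15 tested genes of this list, ATF3 included, 6 were called higher, 2 lower and 7 did not pass in GFP+ cells at 1 h, with a median log2 change of 0.27. Over all tested genes 13.9% were called higher and 19.1% lower there. After ATF3 the largest change was that of crema (ENSDARG00000023217), a CREM-type regulator of cAMP responses, at 1.6 ± 0.24. crema was the one gene of the list called in GFP- cells at 1 h, where 2.70% of all tested genes were called in either direction. Its change there was 1.61 ± 0.24, a call that was lost in the fit on the 2 groups alone (adjusted p = 0.0648). For crema the difference between the populations was -0.01 ± 0.34 (adjusted p = 0.994). Its GFP- libraries held 97.5, 68.3 and 69.6 FPKM at 1 h, against 29.3, 27.9 and 18.4 FPKM in mock. JDP2 (ENSDARG00000020133), a Jun partner that represses AP-1 sites in mammals, changed by 1.22 ± 0.27 in GFP+ cells, while a second JDP2 gene (ENSDARG00000040137) had 0.27 ± 0.21 and did not pass.

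Smaller calls at 1 h in GFP+ cells were those of atf5a (0.81 ± 0.18), atf5b (0.63 ± 0.18) and atf1 (0.49 ± 0.06). ATF2 (-0.68 ± 0.23) and CREB1 (-0.58 ± 0.15), both regulators that are mostly controlled by phosphorylation, were called lower. The ATF2 call was lost without 1 h library 1 (adjusted p = 0.119) or 3 (0.0753) and without mock library 1 (0.117) or 3 (0.137), and both calls were lost in the fit on the 2 groups alone (0.148 for ATF2 and 0.0796 for CREB1). BATF had 0.22, BATF3 0.25, CREB5 0.32, creb1a -0.15 and the ATF7 genes ENSDARG00000011298 and ENSDARG00000055481 -0.04 and -0.27, and none of them passed. At 3 h 3 of the 15 were called higher, ATF3, atf1 and the ATF7 gene ENSDARG00000011298, and at 5 h 2 of 15, atf1 and that ATF7 gene. Over all tested genes 19.9% were called higher at 3 h and 15.1% at 5 h, so neither count stands above the background. With median-of-ratios scaling the atf1 calls at 3 h (0.04) and 5 h (0.02) and the ATF7 call at 5 h (0.28) were lost.

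**Figure D5:**
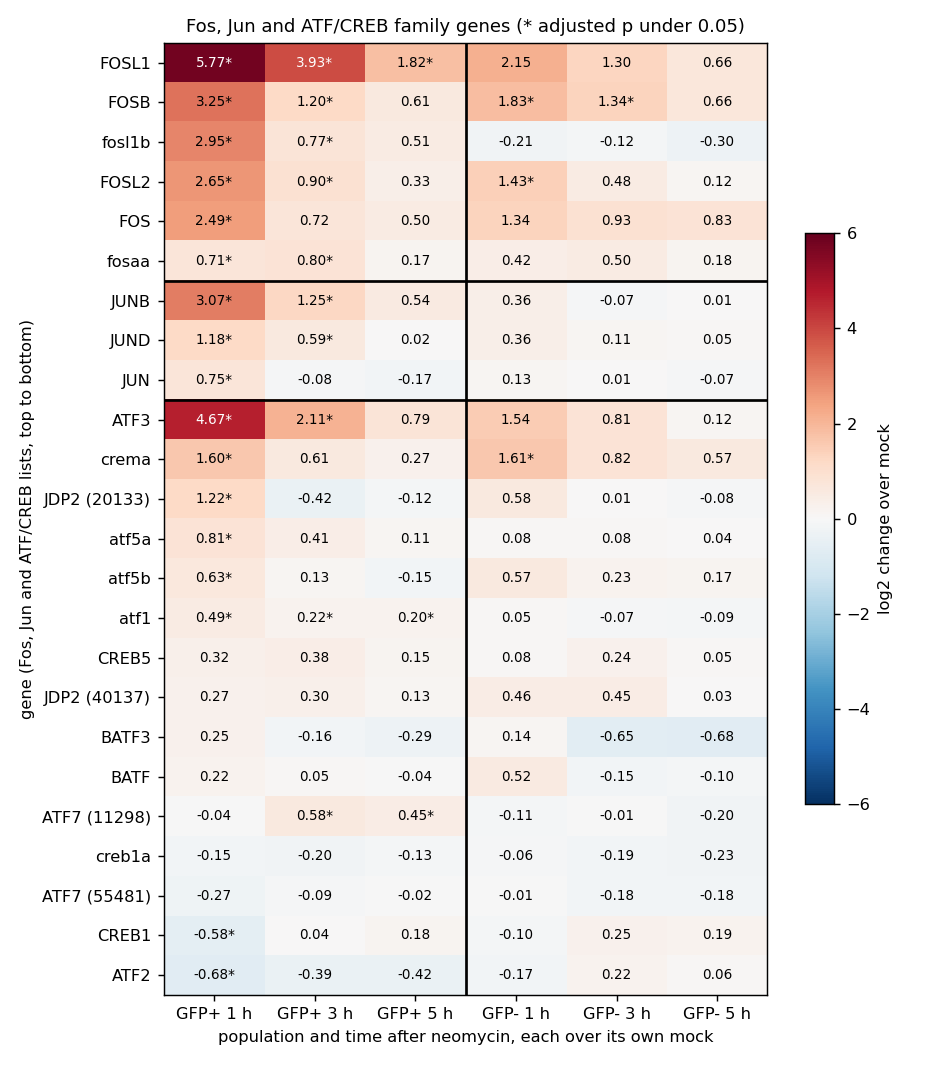
Log2 change over mock of the same population for the tested Fos (top block), Jun (middle) and ATF/CREB genes (bottom), in GFP+ (left 3 columns) and GFP- cells (right 3) at 1, 3 and 5 h after neomycin; red is higher, blue lower, and a star marks an adjusted p under 0.05. The strongest colours are in the GFP+ 1 h column, at FOSL1 (5.77) and ATF3 (4.67).

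Genes of the wider pathway differed in how many moved at 1 h in GFP+ cells. Members of these lists were picked by name with earlier results of the data known, and the share of all tested genes called at 1 h was 13.9% higher and 19.1% lower. Of 34 other immediate early genes, 22 were called higher, 0 lower and 12 did not pass, with a median of 0.81 against -0.068 over all genes. The largest changes were those of GADD45G (ENSDARG00000019417, 2.59 ± 0.18), the zinc finger factor egr2a (2.57 ± 0.34) and GADD45B (ENSDARG00000013576, 2.53 ± 0.31). GADD45 proteins are stress sensors that act on the p38 and JNK kinases. In GFP- cells 2 of the 34 were called higher at 1 h, where 1.88% of all tested genes were.

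Of 28 genes known from other systems as AP-1 targets, 15 were called higher, 1 lower and 12 did not pass, with a median of 0.96. They include ODC1, the first enzyme of polyamine synthesis (386 FPKM at 1 h and 10.7 FPKM in mock, 5.04 ± 0.42), and the collagenase mmp13a (4.12 ± 0.66). In GFP- cells 2 of the 28 were called higher at 1 h, where 1.88% of all tested genes were. At 3 h in GFP+ cells 10 of the 28 were called higher and 3 lower, where 19.9% of all tested genes were called higher and 8.15% lower. There mmp13a was at 4.24 and ODC1 at 3.19. The list is of genes named in the literature, and no binding was measured in these samples.

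Of 28 MAP kinases, their activators and related kinases, 4 were called higher, 7 lower and 17 did not pass, with a median of -0.083. Over all tested genes 13.9% were called higher and 19.1% lower, so the higher count is near the background. MAP3K14-type kinase map3k14a (1.48 ± 0.14) and the p38 substrate MAPKAPK2 (1.33 ± 0.09) were higher and BRAF lower (-0.98 ± 0.17). The count of 4 was 2 without GFP+ library 3 at 1 h and in the fit on the 2 groups alone. Of 12 MAP kinase phosphatases and feedback genes, 4 were called higher, 2 lower and 6 did not pass. DUSP5 (36.5 FPKM at 1 h and 1.02 FPKM in mock, 4.12 ± 0.40) and DUSP4 (2.31 ± 0.21), phosphatases of ERK-type kinases, were higher and SPRY2, a feedback inhibitor of receptor tyrosine kinase signals, was lower (-1.06 ± 0.14).

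The counts that follow stand against 13.9% of all tested genes called higher and 19.1% called lower in GFP+ cells at 1 h. Among regulators that act on Fos promoters, 3 of 7 SRF and TCF genes were called higher, 2 lower and 2 did not pass. They include SRF itself (1.17 ± 0.15) and ELK3 (0.74 ± 0.09), with mrtfab, an SRF cofactor, at -0.95 ± 0.13. Of 7 C/EBP and ATF4 genes 4 were called higher, 0 lower and 3 did not pass, among them CEBPB (2.18 ± 0.42), atf4b (1.22 ± 0.08) and cebpg (0.70 ± 0.11). Of 17 Maf, Nrf and Bach factors, which share the leucine zipper design, 8 were called higher, 2 lower and 7 did not pass, with NFE2L1 at 1.20 ± 0.21, mafbb at 1.09 ± 0.22 and MAF at -1.09 ± 0.27. In the fit on the 2 groups alone that count of 8 was 3, and the calls of mafbb (adjusted p = 0.0736) and MAF (0.12) were lost.

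The members were also alike in their pattern over libraries, given here as Pearson's r of log2(FPKM + 1) without a test, since the libraries share conditions. Over the 12 GFP+ libraries the 6 pairs of members had r from 0.921 to 0.986. Over the 12 GFP- libraries ATF3 and FOSL2 had r = 0.858, ATF3 and JUNB 0.605 and FOSL2 and JUNB 0.618, while fosl1b had -0.093 to 0.081 with the other members, at levels below 1 FPKM. Among 11704 genes whose highest group averaged at least 5 FPKM and that had a symbol other than a clone name, the one most like ATF3 over all 24 libraries was SAT1 (0.948), an enzyme of polyamine breakdown. It was followed by the phosphate carrier SLC20A1 (0.946) and by FOSL2 (0.946). JUNB was also most like SAT1 (0.957), then spag1a (0.945) and the phosphatase ptp4a2b (0.943).

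FOSL2 was most like the mitochondrial arginase ARG2 (0.965), the mitochondrial carrier SLC25A33 (0.956) and SAT1 (0.953). fosl1b was most like zdhhc5b (0.951), ARHGAP42 (0.951) and ARHGEF2 (0.949). Within the 12 GFP+ libraries ATF3 was most like JUNB (0.986), SLC25A25 (0.983) and SAT1 (0.982), and JUNB most like SAT1 (0.986), ATF3 (0.986) and the RNA-binding protein LIN28A (0.981). There fosl1b was most like SMAD3 (0.988), a signal carrier of TGF-beta, arhgef2a (0.983) and ABCA7 (0.981), and FOSL2 most like SBNO2 (0.985), ARG2 (0.979) and the TNF receptor tnfrsf1a (0.978). LIN28A held 19.9 FPKM at 1 h and 0.428 FPKM in mock GFP+ cells (3.80 ± 0.30), and in GFP- cells it had 0.580 FPKM at 1 h and 0.397 FPKM in mock. Like fosl1b, it averaged below 1 FPKM in mock cells of both populations and in GFP- cells at 1 h.

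The sorted cells were checked by marker genes. The 15 lateral line and supporting cell markers summed to 2469 to 6638 FPKM in GFP+ libraries, against 253 to 313 FPKM in GFP- libraries, and none was at 0 throughout a group. Among GFP+ cells this sum was 5271 to 6638 FPKM in mock, 3601 to 4877 FPKM at 1 h, 2469 to 2912 FPKM at 3 h and 3079 to 4348 FPKM at 5 h. A sum gives most weight to the highest genes. The mean log2 value of the same 15 markers ranged from 6.11 to 6.43 over the mock GFP+ libraries. The 1 h libraries lay below this range, with 5.58 to 6.03. For 3 h the range was 5.93 to 6.12, which overlapped mock. The 5 h range, 6.15 to 6.41, lay within that of mock. The 19 epidermis markers were also high in the GFP+ libraries, at 13080 to 27320 FPKM, against 1641 to 2971 FPKM in GFP- libraries. Whether lateral line cells or other GFP+ cells carried these transcripts was not tested. The 20 hair cell markers summed to 2487 to 3362 FPKM in mock GFP+ cells, 2333 to 2602 FPKM at 1 h, 1122 to 1925 FPKM at 3 h and 1460 to 1850 FPKM at 5 h. The 24 blood and leukocyte markers summed to 218 to 467 FPKM in mock GFP+ cells, 244 to 615 FPKM at 1 h, 649 to 1252 FPKM at 3 h and 464 to 1004 FPKM at 5 h, against 23211 to 46879 FPKM in GFP- cells. Of 23 tested blood markers 1 was called higher in GFP+ cells at 1 h and 10 at 3 h, where 13.9% and 19.9% of all tested genes were. Relative depth, read from values under 0.15 FPKM, ran from 0.729 to 1.26 of the median library and was lowest in GFP+ cells at 3 h (0.729 to 0.840). The part of these shifts in the member changes was not tested.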

How the data were processed

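The values are FPKM as deposited by the authors (fragments per transcript length and mapped total), 1 column per library and 1 row per Ensembl gene. Per the submitters' processing notes they used CASAVA 1.8.2, TopHat 1.4.1 and Cufflinks 1.3 with build danRer7, and per the labels' protocols a TruSeq kit with poly-A selection was used. The sources used here give neither annotation release nor strand setting, so overlapping and antisense genes cannot be told apart. Read counts and depth are unknown.

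Of 31199 rows, 112 repeats of an ID were dropped, and 20499 of 31087 IDs had a symbol. The 21860 genes with 1 FPKM or more in at least 3 of 24 libraries were tested. limma 3.58.1 in R 4.3.3 fitted log2(FPKM + 1) with 1 mean per group over all libraries and variances moderated along an intensity trend, two-sided, adjusted over all genes of each of 19 contrasts, threshold 0.05. The method was tested on simulated data. A median of ratios was used only as an alternative scaling.

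The members and lists were chosen with earlier results of these data known. Of 271 symbols in 10 pathway lists, 159 IDs matched. Text names the 4 members, all tested Fos, Jun and ATF/CREB genes, up to 3 called genes with the largest GFP+ change at 1 h from each other list, and the 3 genes most like each member. A gene that this rule names among the AP-1 targets is not reported here. The labels do not say whether replicate numbers pair the libraries. Deviations from group means correlated over 0.1 in 1 of 12 same-numbered GFP+ and GFP- pairs (0.032 to 0.113), so no block was used. Alternatives were a pseudocount of 0.1, no filter or one of 5 FPKM, median-of-ratios scaling, a fit on the contrast's own groups, replicate blocks, each library left out, and, chosen after seeing the data, leaving out the 8 libraries numbered 1.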

Additional observations from a re-analysis of the deposited data

Results flagged for a closer look

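At 1 h, 8 genes of the Fos, Jun and ATF/CREB families had a change after neomycin called larger in GFP+ than in GFP- cells. The test was of the difference of the log2 changes in limma with Benjamini-Hochberg adjustment. Over all tested genes, 7.65% were called in this direction at 1 h and 5.40% at 3 h. The differences were 3.13 for ATF3 (adjusted p = 0.00559), 1.22 for FOSL2 (0.0211) and 2.71 for JUNB (0.00045). That of fosl1b was 3.16. The values of fosl1b here are a description, since it passed the filter only through GFP+ cells after neomycin. FOSL1 (3.63, adjusted p = 0.00683), JUND (0.83, 0.0443), JUN (0.62, 0.0363) and atf1 (0.43, 0.00128) followed. At 3 h the difference was 0.89 for fosl1b (adjusted p = 0.0484) and 0.29 for atf1 (0.0394). Without the 8 libraries numbered 1, the differences of JUN (0.48, adjusted p = 0.225) and JUND (0.70, 0.272) at 1 h and of fosl1b (0.96, 0.0888) and atf1 (0.26, 0.238) at 3 h did not pass. The atf1 difference at 3 h was 0.099 with median-of-ratios scaling (adjusted p = 0.603) and was also lost in the fit on the contrast's own groups (0.092) and with the block of GFP+ and GFP- libraries (0.0906). In 11 of the 24 fits that each left out 1 library it was lost as well.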

How the results depend on the processing

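For each of the 4 members the GFP+ call at 1 h held in all 31 alternatives, with ranges of 4.25 to 5.23 for ATF3, 2.78 to 4.95 for fosl1b, 2.49 to 2.96 for FOSL2 and 2.73 to 3.32 for JUNB. The population difference at 1 h, the change in GFP+ minus that in GFP- cells, held in 32 of 32 for ATF3, fosl1b and JUNB and in 28 of 32 for FOSL2. For fosl1b these counts are a description, since it entered the tests only through GFP+ cells after neomycin. Depth is unknown and 3 libraries per group limit the precision. Adjusted p-values are from limma. The cause of the differences below was not tested.

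A fit on the contrast's own groups has fewer libraries to estimate the spread. In it the GFP+ changes at 3 h lost their calls for ATF3 (2.11), fosl1b (0.77), FOSL2 (0.90) and JUNB (1.25), as did the fosl1b population difference at 3 h (0.89) and its GFP+ over GFP- level at 3 h (0.56), while fosl1b gained one at 5 h (0.51) and in mock (-0.32). Called genes in GFP+ cells numbered 3819 at 1 h (7213 with all libraries), 3788 at 3 h (6139) and 1745 at 5 h (4199), and in GFP- cells 96 (591), 60 (966) and 18 (228). Population differences numbered 1990 at 1 h (3084) and 180 at 5 h (617). Between times, counts were 4424 (7836), 1 (389) and 5477 (8459) for GFP+ 3 h over 1 h, 5 h over 3 h and 5 h over 1 h, and in GFP- cells 7 for 5 h over 3 h (0 with all libraries, 1326 at an unadjusted p under 0.05) and 1108 for 5 h over 1 h (1957). The Maf list had 3 higher and the MAP kinase list 2.

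The setting without the 8 libraries numbered 1 was chosen after seeing the data. In it calls were gained for ATF3 in GFP+ cells at 5 h (1.41), in GFP- cells at 1 h (1.69) and for its mock population level (-0.90). They were also gained for FOSL2 in GFP+ cells at 5 h (0.62) and in mock (-0.58), and for JUNB in GFP+ cells at 5 h (0.72), its population difference at 3 h (1.31) and its population level at 5 h (-0.49). fosl1b lost its population difference at 3 h (0.96) and level at 5 h (0.39). Uncalled values turned sign for fosl1b in GFP- cells (-0.056 for 3 h over 1 h and 0.053 for 5 h over 3 h), FOSL2 GFP+ over GFP- at 3 h (-0.090), JUNB in GFP- cells at 5 h (-0.015) and BATF3 (-0.13). Called genes were 280, 353 and 111 in GFP- cells at 1, 3 and 5 h, 412 and 215 for the population differences at 3 and 5 h, 56 for GFP+ 5 h over 3 h, and 3 and 820 for GFP- 5 h over 3 h and over 1 h.

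With 0.1 added, fosl1b gained calls in GFP+ cells at 5 h (1.55), for its population difference at 5 h (2.56) and in mock (-1.07), and GFP- cells had 589 called genes at 3 h and 133 at 5 h. With a filter of 5 FPKM, which fosl1b passes at 1 h only, its population difference at 3 h (0.89) and levels at 3 h (0.56) and 5 h (0.49) were lost. With median-of-ratios scaling the fosl1b population difference at 3 h (0.85) and the JUNB level in mock (-0.67) were lost, population differences numbered 749 at 3 h (1360 without scaling) and 135 at 5 h, and the uncalled ATF7 gene ENSDARG00000011298 turned sign (0.024).

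The labels do not say whether the replicate numbers pair the libraries. Of same-numbered pairs, 1 of 12 GFP+ and GFP- pairs and 4 of 36 pairs of conditions correlated over 0.1. The GFP+ and GFP- correlations were low but all positive (0.032 to 0.113), so pairing is not excluded. A replicate block changed these calls. By number, ATF3 in GFP- cells at 1 h (1.54), ATF3 in GFP- 5 h over 1 h (-1.43), the JUNB population difference at 3 h (1.32) and JUNB level at 5 h (-0.51) gained a call and the fosl1b difference at 3 h (0.89) lost it. With GFP+ and GFP- libraries of 1 condition and number as a block, the population differences at 3 h of ATF3 (1.29) and JUNB (1.32), the mock levels of ATF3 (-0.86) and FOSL2 (-0.37) and the JUNB level at 5 h (-0.51) gained one, and 389 genes were called for the difference at 5 h. With either block no other member call changed.

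With 1 library left out, ATF3 ran from -0.17 to 0.49 in GFP- cells at 5 h, -1.72 to -1.20 for GFP- 5 h over 1 h, and in GFP+ over GFP- cells from -1.27 to -0.49 in mock, -0.15 to 0.85 at 3 h and -0.42 to 0.10 at 5 h. fosl1b ran from 0.47 to 0.55 in GFP+ cells at 5 h, 0.70 to 1.08 for the population difference at 3 h, 0.37 to 0.76 and 0.42 to 0.54 for the levels at 3 and 5 h, and -0.067 to 0.20 for GFP- 3 h over 1 h. FOSL2 ran from 0.59 to 1.21 in GFP+ cells at 3 h, 1.06 to 1.53 for the population difference at 1 h, -0.68 to -0.21 and -0.26 to 0.28 for the levels in mock and at 3 h, and -1.12 to -0.86 for GFP- 3 h over 1 h. JUNB ran from -0.25 to 0.097 and -0.070 to 0.061 in GFP- cells at 3 and 5 h, 0.95 to 1.57 for the population difference at 3 h, -0.093 to 0.51 for the level at 3 h and -0.090 to 0.26 for GFP- 5 h over 3 h. Called genes ran from 225 to 767, 268 to 1078 and 67 to 235 in GFP- cells at 1, 3 and 5 h, 754 to 1637 and 231 to 773 for the population differences at 3 and 5 h, 89 to 519 for GFP+ 5 h over 3 h, and 832 to 2069, 0 to 1 and 1020 to 2153 for GFP- 3 h over 1 h, 5 h over 3 h and 5 h over 1 h. The MAP kinase list ran from 2 to 5 higher, BATF3 from -0.12 to 0.52 and the ATF7 gene from -0.13 to 0.079 in GFP+ cells at 1 h.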
